A study of Mus musculus with 24 samples.

Results

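The 32 genes described here are those of cholesterol synthesis and sterol handling. They were taken by name from a written list, with no use of measured values in the rule: 20 enzymes of synthesis (8 of the mevalonate pathway and 12 that build sterols from farnesyl diphosphate), 4 genes that control the transcription factor SREBP2, and 8 genes of sterol transport, esterification and LXR signaling. The count table held 55536 genes, 14076 passed the filter on low counts, and all 32 members were among these. The tissue was distal small intestine from inbred C57BL/6N mice, and each animal gave 1 RNA library. The animals started at 4 to 5 weeks of age on a control diet (CD, 10% of energy as fat) or a high-fat diet (HFD, 60%). After 20 weeks the groups CDmetf and HFDmetf were given metformin, an oral glucose-lowering drug, in the drinking water at 50 mg/kg/day for 10 weeks while CD and HFD were not, and each diet was kept throughout. Each of the 4 groups had 6 animals, 3 labelled male and 3 labelled female, numbered from 1 to 3 within each sex (M1, F1 and so on).

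Cholesterol is made from acetyl-CoA through mevalonate, the isoprenoid farnesyl diphosphate, squalene and lanosterol. When the endoplasmic reticulum is low in sterol, SCAP escorts SREBP2 to the Golgi, where SREBP2 is cut and released to switch on the enzymes of this pathway. When sterol is plentiful, INSIG proteins hold SCAP back. Oxysterols activate LXR, whose targets export sterol from the cell. The small intestine both makes cholesterol and takes it up from food and bile, and its absorptive cells esterify it, return it to the lumen or pass it to lipoproteins.

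Each library held between 1829690 and 40606442 reads counted on genes (median 3467307.5), so that 3 reads corresponded to between 0.0705 and 1.71 CPM (counts per 1000000 reads of normalized library size), a floor for counting error only. In CD M3, 10 genes took 85.4% of the counts, and in HFDmetf F2 36.6%, against 9.22% to 19% elsewhere. HFD M2 and HFD F2, as labelled, went against their labelled sex in Xist and Y-linked reads. Fits without HFD M2 and HFD F2, and without all 4 of these libraries, were run, and calls of named members that they ended are given with the comparisons. The tissue markers were present: the 6 epithelial genes summed to between 4360 and 10908 CPM per library and the 4 distal ileum genes (Fabp6, Slc10a2, Slc51a and Slc51b) to between 157 and 4664 CPM, while the 5 genes typical of the proximal small intestine (Gata4, Lct, Rbp2, Fabp1 and Slc2a2) ranged from 80.2 to 7589 CPM. In whole tissue, fewer cells of a type and less RNA per cell cannot be told apart.

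Among the members, levels per kilobase of exon in the CD group placed Npc1l1, the cholesterol importer of the brush border, first at 299 CPM per kb. Hmgcs1, the HMG-CoA synthase of the mevalonate pathway, followed at 63.8 CPM per kb, and then Abcg5 at 56.9, Stard4 at 53.8, Abcg8 at 46.4 and Soat2 at 43.2 CPM per kb. Genes of sterol transport, esterification and LXR signaling thus took 5 of the 6 highest places, and Hmgcs1 was the only enzyme of synthesis among them. Sqle, the squalene epoxidase, was at 18.3 CPM per kb and ranked 12. The enzymes Lss (3.77 CPM per kb) and Fdps (0.69) ranked last.

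Some members share sequence with other annotated genes. At 97% identity or more, 65.6% of the longest Acat2 transcript was shared with Acat3 or Tcp1, 54.7% of Fdft1 with Ctsb or a gene model, 33.3% of Idi1 with 3 gene models and 16.7% of Fdps with 5. Of Fdps exon bases, 26.7% also lay in another gene on the same strand, and 4 of its libraries had fewer than 3 reads. The strand used for counting is not given in the sources used here, so the values of these 4 genes, and of others with overlaps such as Hmgcs1 (12.1% of exon bases opposite another gene) and Tm7sf2 (12.1% on the same strand), are less certain.

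Promoters are shown because many synthesis enzymes varied together across libraries and because SREBP2 acts at promoters, usually beside the factors NF-Y and Sp1. The 250 bases before the start were taken from RefSeq (GRCm38.p6) for the 27 members with an entry. On either strand, TCACNCCAC, a form of the sterol regulatory element, was present in 1 of 27 members, Hmgcs1, and in 1.22% of 27025 genes. CCAAT, the core letters of an NF-Y box, was present in 16 of 17 synthesis enzymes and 6 of 10 other members, against 37.5% of all genes. GGGCGG, the core of a Sp1 box, was present in 15 of 17 and 6 of 10, against 35.4%. These letter matches describe the windows only. The shares over all genes include genes that did not pass the filter on low counts, while all members passed it. Below, Hmgcs1, Msmo1 and Nsdhl stand for enzymes with a lower level on the high-fat diet, and Abca1 for a transport gene with a higher one. None of these differences passed FDR under 0.05 in edgeR's test. Capitals mark TCACNCCAC and CCAAT on either strand, and the sequences run 5′ to 3′ toward the start.
Hmgcs1 (chr13:119690101-119690350, + strand): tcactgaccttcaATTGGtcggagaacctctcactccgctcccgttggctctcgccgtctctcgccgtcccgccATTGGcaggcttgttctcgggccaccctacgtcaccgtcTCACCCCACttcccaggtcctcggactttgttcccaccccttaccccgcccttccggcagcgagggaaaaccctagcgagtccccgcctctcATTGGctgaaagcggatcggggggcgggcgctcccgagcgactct
Msmo1 (chr8:64733579-64733828, - strand): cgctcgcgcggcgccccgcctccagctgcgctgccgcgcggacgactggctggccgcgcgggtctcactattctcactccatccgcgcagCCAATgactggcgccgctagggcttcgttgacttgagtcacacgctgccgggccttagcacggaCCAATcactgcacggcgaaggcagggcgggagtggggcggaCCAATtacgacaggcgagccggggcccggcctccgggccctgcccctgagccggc
Nsdhl (chrX:72918271-72918520, + strand): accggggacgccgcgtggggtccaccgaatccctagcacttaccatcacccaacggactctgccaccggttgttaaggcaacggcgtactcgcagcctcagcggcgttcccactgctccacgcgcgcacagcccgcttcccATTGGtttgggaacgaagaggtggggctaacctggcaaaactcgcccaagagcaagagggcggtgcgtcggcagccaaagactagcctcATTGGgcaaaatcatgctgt
Abca1 (chr4:53159896-53160145, - strand): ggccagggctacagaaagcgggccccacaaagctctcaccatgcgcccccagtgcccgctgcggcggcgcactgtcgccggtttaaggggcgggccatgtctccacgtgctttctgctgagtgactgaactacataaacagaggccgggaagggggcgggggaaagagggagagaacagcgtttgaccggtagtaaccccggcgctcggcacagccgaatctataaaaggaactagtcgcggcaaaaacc
The Hmgcs1 window held the element TCACCCCAC with its first base 137 bases before the start, and 3 CCAAT boxes, each on the reverse strand. In the Hmgcs1 and Nsdhl windows the bases after the start were not found near the start of a GENCODE transcript, so these distances to the start are less certain. Both windows end shortly before the gene start in GENCODE (bases 119690379 and 72918557). Most of the Msmo1 window, with its 3 CCAAT boxes, lay inside the gene as annotated there, which begins at base 64733792. The place of that window before the start is thus uncertain too. Msmo1 held 3 CCAAT boxes and Nsdhl 2. The Abca1 window held 0 CCAAT and 2 GGGCGG.

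On the high-fat diet, the enzymes of cholesterol synthesis were lower. Averaged over metformin (12 animals against 12), 19 of the 20 enzymes had a negative logFC (log2 fold change of the high-fat over the control diet), with a median of -0.54 against 0.01 over all genes tested. At an unadjusted p under 0.05, 16 of 20 were lower and 0 higher, against a background of 2.69% of all genes lower. The largest differences were in Sqle, at 0.528 of its control-diet level, Msmo1 (0.548), Hmgcs1 (0.560), Cyp51 (0.571) and Mvd (0.572). Of the 4 SREBP2 control genes, 2 were lower at this level (Insig1 and Srebf2), and of the 8 transport and LXR genes, 1 was higher (Abca1, background 3.28% higher). None of these passed the adjusted threshold. edgeR's quasi-likelihood test called 0 of 14076 genes at FDR under 0.05 in this comparison (background 0.0%), where 839 genes had an unadjusted p under 0.05. The lowest member FDR was 0.213 for Hmgcs1 and Nsdhl, which ranked 11 and 12 of all genes by p. DESeq2 called 48 genes, 5 of them members, all lower: Hmgcs1 (FDR = 0.00703), Nsdhl (0.00752), Sqle (0.0309), Cyp51 (0.0348) and Msmo1 (0.0358). limma-voom called 2 genes and 0 members.

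**Figure D1:**
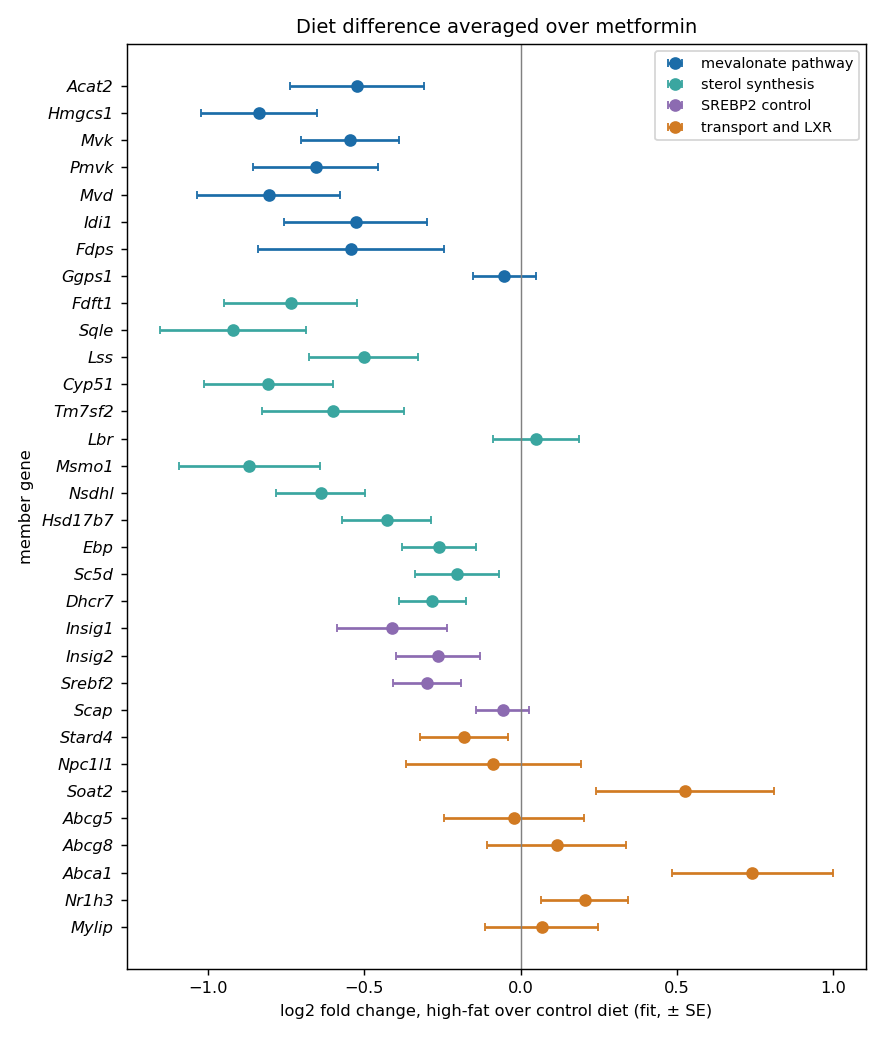
Log2 fold change of each of the 32 members between the high-fat and the control diet, averaged over metformin, as points with bars of ± 1 SE, colored by role. The 20 synthesis enzymes lie between -0.92 (Sqle) and 0.05 (Lbr), and of the transport, esterification and LXR genes Abca1 lies at 0.74 and Soat2 at 0.53.

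Values below are the lowest, median and highest over the 12 libraries of each diet, and FDR is the adjusted p of edgeR's quasi-likelihood test. In the mevalonate pathway, Hmgcs1 had 141, 312 and 532 CPM on the control diet and 103, 148 and 256 CPM on the high-fat diet (logFC = -0.84, SE = 0.19, FDR = 0.213). Its median on the high-fat diet was near the lowest control value, and the ranges overlapped. Acat2, the cytosolic thiolase of the first step, had 7.19, 19.3 and 41.8 CPM on the control diet and 7.36, 11.7 and 23.9 CPM on the high-fat diet (logFC = -0.52, SE = 0.22, FDR = 0.746). Mvk, mevalonate kinase, had 11.4, 18.5 and 27.7 CPM on the control diet and 7.22, 13.1 and 19.7 CPM on the high-fat diet (logFC = -0.55, SE = 0.16, FDR = 0.412). Pmvk, phosphomevalonate kinase, had 4.57, 11.9 and 28.6 CPM on the control diet and 5.21, 7 and 13.2 CPM on the high-fat diet (logFC = -0.66, SE = 0.20, FDR = 0.461). In these 3 genes the highest values were from control-diet libraries. Mvd, which decarboxylates mevalonate diphosphate, had 8.49, 20 and 41.5 CPM on the control diet and 3.27, 10.6 and 27.7 CPM on the high-fat diet (logFC = -0.81, SE = 0.23, FDR = 0.395). Idi1, the isopentenyl diphosphate isomerase, had 10.5, 22.3 and 40.3 CPM on the control diet and 6.64, 14.1 and 27.6 CPM on the high-fat diet (logFC = -0.53, SE = 0.23, FDR = 0.783). Libraries were also set side by side by labelled sex and number, leaving out the comparisons with HFD M2 and HFD F2. Replicate numbers were not shown to pair the animals, and such counts were not made for all genes, so they only describe these matches. Of the 10 comparisons left, Hmgcs1 was lower in 10, Acat2 in 7 and Mvk, Pmvk, Mvd and Idi1 in 8. Fdps, which makes farnesyl diphosphate, had an unadjusted p over 0.05 (logFC = -0.54, SE = 0.30, FDR = 0.869) and rests on few reads. Ggps1, which leads away from sterols to geranylgeranyl diphosphate, differed by -0.05 (SE = 0.10).

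Among the enzymes after farnesyl diphosphate, those from Fdft1 to Nsdhl, apart from Lbr, had a logFC of -0.50 or lower. Fdft1, squalene synthase, had 35.6, 77.8 and 153 CPM on the control diet and 22.9, 41 and 91 CPM on the high-fat diet (logFC = -0.74, SE = 0.21, FDR = 0.412). Sqle had 44.1, 104 and 196 CPM on the control diet and 22.1, 49.7 and 102 CPM on the high-fat diet (logFC = -0.92, SE = 0.23, FDR = 0.336). Lss, which closes the ring to lanosterol, had 23.5, 40 and 68.2 CPM on the control diet and 14.7, 28.2 and 54 CPM on the high-fat diet (logFC = -0.50, SE = 0.17, FDR = 0.589). Sqle was lower in 9 of the 10 comparisons by labelled sex and number. Cyp51, the lanosterol demethylase, had 57.5, 127 and 236 CPM on the control diet and 40.8, 70.8 and 116 CPM on the high-fat diet (logFC = -0.81, SE = 0.21, FDR = 0.339) and was lower in 10 of 10. Tm7sf2, a sterol C14 reductase, had 6.62, 16.2 and 29.8 CPM on the control diet and 3.77, 11.2 and 17.2 CPM on the high-fat diet (logFC = -0.60, SE = 0.23, FDR = 0.665). Lbr, a lamin-binding protein of the nuclear envelope with the same reductase activity, had 45, 60.7 and 83 CPM on the control diet and 34.3, 66.4 and 85.3 CPM on the high-fat diet (logFC = 0.05, SE = 0.14, FDR = 0.996). Msmo1, which oxidizes the C4 methyl groups, had 42.1, 105 and 177 CPM on the control diet and 33.5, 58.3 and 88 CPM on the high-fat diet (logFC = -0.87, SE = 0.22, FDR = 0.339). Nsdhl, its partner in C4 demethylation, had 20.9, 32.4 and 53.5 CPM on the control diet and 13.9, 20.6 and 33 CPM on the high-fat diet (logFC = -0.64, SE = 0.14, FDR = 0.213).

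The last enzymes of the pathway differed less. Hsd17b7, the third C4 demethylation enzyme, had 19.1, 35.8 and 53.3 CPM on the control diet and 20.6, 26.2 and 32 CPM on the high-fat diet (logFC = -0.43, SE = 0.14, FDR = 0.547). Ebp, the sterol isomerase, had 27.6, 43.2 and 51.8 CPM on the control diet and 18.2, 37.3 and 44.6 CPM on the high-fat diet (logFC = -0.26, SE = 0.12, FDR = 0.811). Dhcr7, the final reductase, had 43.8, 67.5 and 96.5 CPM on the control diet and 40.5, 53.9 and 82.3 CPM on the high-fat diet (logFC = -0.28, SE = 0.11, FDR = 0.665). The diet ranges overlapped widely in all 3. Sc5d, the sterol desaturase, had an unadjusted p over 0.05 (logFC = -0.20, SE = 0.13, FDR = 0.911).

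In the SREBP2 control genes the differences were smaller. Srebf2, which encodes SREBP2 itself, had 157, 236 and 345 CPM on the control diet and 115, 191 and 314 CPM on the high-fat diet (logFC = -0.30, SE = 0.11, FDR = 0.630) and was lower in 10 of the 10 comparisons by labelled sex and number. Insig1 had 47.7, 93.9 and 165 CPM on the control diet and 43.4, 61.2 and 103 CPM on the high-fat diet (logFC = -0.41, SE = 0.18, FDR = 0.774). The lowest control value of Insig1 was from CD M3, apart from the other 5 CD libraries at 87.1 to 97.5 CPM. Insig2 (logFC = -0.26, SE = 0.14, FDR = 0.857) and Scap (logFC = -0.06, SE = 0.08, FDR = 0.988) had unadjusted p over 0.05.

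Transport and LXR genes did not share a direction, with a median logFC of 0.09. Abca1, the LXR target that loads cholesterol onto lipoproteins, had 58, 93.3 and 211 CPM on the control diet and 66, 186 and 387 CPM on the high-fat diet (logFC = 0.74, SE = 0.26, FDR = 0.589), and was higher in 6 of the 10 comparisons by labelled sex and number. In these it was higher in every match labelled male, but lower in most labelled female. From CDmetf to HFDmetf, for example, M2 went from 58 to 252 CPM and F2 from 98.2 to 66 CPM. A difference of this diet effect between the sexes was not tested. Soat2, which esterifies absorbed cholesterol, came next (logFC = 0.53, SE = 0.28, FDR = 0.865, unadjusted p over 0.05). The LXR gene Nr1h3 (logFC = 0.20, SE = 0.14), the exporter gene Abcg8 (0.12, SE = 0.22) and the LXR target Mylip (0.07, SE = 0.18) were on the same side, each with p over 0.05. The exporter gene Abcg5 (logFC = -0.02, SE = 0.22), the importer gene Npc1l1 (-0.09, SE = 0.28) and Stard4, a cytosolic sterol carrier (-0.18, SE = 0.14), were on the other. Npc1l1 spread the most in CPM, from 238 to 2356 over the 24 libraries.

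The diet difference was then taken without and with metformin, in comparisons that share no animal. In HFD vs. CD, 10 of 20 enzymes were lower at an unadjusted p under 0.05 (background 2.04%), 0 were higher (background 2.59%), and the median logFC was -0.64. In HFDmetf vs. CDmetf, 11 of 20 were lower (background 4.04%), 0 were higher (background 3.83%), and the median was -0.54. edgeR called 0 genes in both at FDR under 0.05, where 652 and 1108 genes had an unadjusted p under 0.05. In the first, DESeq2 called 13 genes and 0 members. Of the enzymes lower at this level, 7 were the same in both, which is 70.0% of the first list and 63.6% of the second: Hmgcs1, Pmvk, Fdft1, Sqle, Cyp51, Msmo1 and Nsdhl. Leaving out single animals moved the count from 8 to 12 in HFD vs. CD, and from 7 (without CDmetf M1) to 17 (without CDmetf F1) in HFDmetf vs. CDmetf.

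In HFD vs. CD, Hmgcs1 had lowest, median and highest values of 196, 295 and 413 CPM in CD and 103, 129 and 255 CPM in HFD (logFC = -0.85, SE = 0.26, FDR = 1.0). Sqle had 60.5, 102 and 145 CPM in CD and 22.1, 50.7 and 89.2 CPM in HFD (logFC = -0.92, SE = 0.33, FDR = 1.0). In both, the upper HFD libraries reached into the CD range. Nsdhl had 30.2, 32.4 and 40.7 CPM in CD and 13.9, 20.6 and 25.7 CPM in HFD (logFC = -0.72, SE = 0.20, FDR = 1.0), and these were the only groups of a member that did not overlap (1 of 20 enzymes, against 0.0497% of all genes lower without overlap). Nsdhl ranked 16 of 14076 genes by p in this comparison. The other enzymes lower at this level, as logFC with SE, were Mvd (-0.96, 0.32), Msmo1 (-0.87, 0.32), Fdft1 (-0.77, 0.30), Pmvk (-0.69, 0.28), Lss (-0.67, 0.25), Mvk (-0.66, 0.22) and Cyp51 (-0.62, 0.29). Abca1 was the only member higher (logFC = 0.82, SE = 0.36, FDR = 1.0), with 63.7, 115 and 175 CPM in CD and 100, 162 and 387 CPM in HFD. This value rests on few animals: without HFD M1, at 387 CPM, the logFC was 0.57, with an unadjusted p over 0.05, and the p was also over 0.05 without HFD M2 and HFD F2 (logFC = 0.82) and without the 4 libraries (0.78). No FDR of a member in HFD vs. CD was under 0.05.

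In HFDmetf vs. CDmetf, Hmgcs1 had 141, 318 and 532 CPM in CDmetf and 117, 173 and 256 CPM in HFDmetf (logFC = -0.83, SE = 0.26, FDR = 0.582). Sqle had 44.1, 117 and 196 CPM in CDmetf and 33.9, 49.7 and 102 CPM in HFDmetf (logFC = -0.92, SE = 0.33, FDR = 0.599). In both genes CDmetf F1 was within the HFDmetf range while CDmetf M2 stood highest. The other enzymes lower at this level were Cyp51 (-1.0, 0.30), Msmo1 (-0.87, 0.32), Tm7sf2 (-0.74, 0.32), Fdft1 (-0.70, 0.30), Pmvk (-0.62, 0.29), Nsdhl (-0.56, 0.20), Hsd17b7 (-0.53, 0.20), Ebp (-0.39, 0.17) and Dhcr7 (-0.34, 0.15). The control genes Insig2 (logFC = -0.71, SE = 0.19, FDR = 0.582) and Insig1 (logFC = -0.61, SE = 0.25, FDR = 0.599) were lower as well, 2 of 4, and 0 of 8 transport genes had a p under 0.05. The lowest FDR of a member was 0.582. For Hmgcs1 and Sqle the difference between the diet effects was 0.02 (SE = 0.37) and 0.00 (SE = 0.47), both with an unadjusted p over 0.05. These standard errors leave room for a difference of the size of the diet effect.

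**Figure D2:**
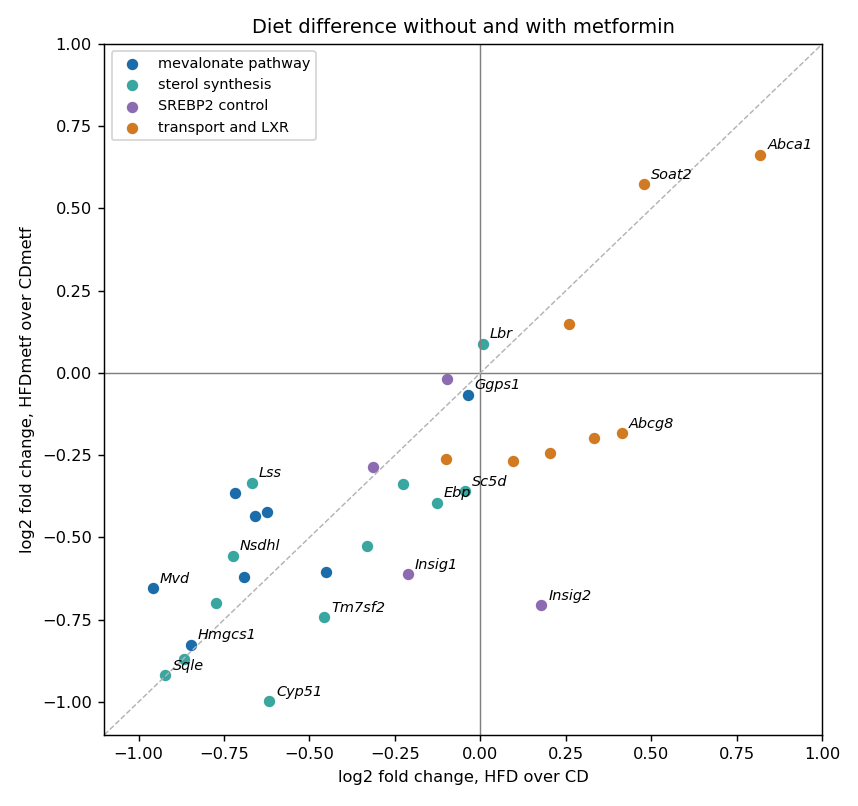
Log2 fold change of the 32 members for HFD over CD (horizontal) and HFDmetf over CDmetf (vertical), colored by role, with the line of equal values dashed. All enzymes but Lbr lie below 0 on both axes, and Insig2 is apart at 0.18 and -0.71.

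Other measures moved with the diet beside the members. Averaged over metformin, the proximal markers had a median logFC of 1.40, from -0.21 to 3.14. At an unadjusted p under 0.05, 2 of 5 were higher (Fabp1 at 3.14 and Rbp2 at 1.62), while of the 4 distal ileum markers Slc10a2 was lower (-1.65) and the median was -0.36. The summed proximal markers ranged from 156 to 4372 CPM in CD, 86.3 to 4853 in CDmetf, 603 to 7589 in HFD and 80.2 to 3641 in HFDmetf, with Fabp1 at 0 in some libraries. The summed distal ileum markers ranged from 290 to 4664, 365 to 3796, 157 to 2606 and 445 to 2429 CPM in the same order. Both lists thus spread widely within every group. The 6 epithelial markers had a median of -0.07 with 0 at this level. Of 4 macrophage markers 2 were higher (sums of 74.6 to 133, 119 to 196, 74.1 to 161 and 94.3 to 259 CPM), and of the 4 smooth muscle markers tested 1 was lower (854 to 2357, 1179 to 3110, 960 to 1819 and 1029 to 2569 CPM). Of the markers tested for crypt cells (5), B cells (5), T cells (2), adipocytes (4) and enteric neurons (3), 0 were at this level. In HFD vs. CD, 4 of 5 B-cell markers (median logFC 1.69) and 2 of 5 proximal markers (median 1.08) were higher, and 2 of the 4 smooth muscle markers tested (median -0.39) and 1 of 5 crypt markers (median -0.02) were lower. The part of these cell types in the members' values was not tested except as follows. These marker lists moved with the diet too, so a fit with their scores can also take away part of a diet difference. With the distal and proximal marker scores (mean log2 CPM of each list) as covariates, 12 of 20 enzymes remained lower at an unadjusted p under 0.05, and the median of the 20 was -0.39. In that fit Hmgcs1 was at -0.60 (SE = 0.12, FDR = 0.0928), Nsdhl at -0.48 (SE = 0.09, FDR = 0.0928) and Sqle at -0.63 (SE = 0.13, FDR = 0.162). Their effects and their standard errors were both smaller than without the scores. Acat2, Idi1, Ebp, Dhcr7 and Insig1 then had an unadjusted p over 0.05, while Abca1 (0.35, SE = 0.15), Npc1l1 (-0.53, SE = 0.16) and Abcg5 (-0.32, SE = 0.15) had one under 0.05 and Soat2 came to -0.02 (SE = 0.13). With the epithelial score, 15 of 20 enzymes were lower at this level.

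The diet difference was also taken by depth and without the libraries set apart. Of the 10 libraries with over 9000000 reads, 4 were from CD and 2 from each other group. Within these 10, the mean log2 difference between diets was negative in 18 of 20 enzymes with a median of -0.51, and within the other 14 in 20 of 20 with a median of -0.57. All high-fat libraries among these 10 were labelled female, while those on the control diet were of both sexes. Most high-fat libraries among the other 14 were labelled male. These plain means were not adjusted for sex, so the split does not separate depth from sex. CD M3 counted as over 9000000 by its raw reads, but its normalized library size was below that. Without CD M3, HFD M2, HFD F2 and HFDmetf F2, an alternative chosen after seeing the data, 17 of 20 were lower at an unadjusted p under 0.05 with a median of -0.73. Acat2 then had p over 0.05, and Fdps (-0.76) and Sc5d (-0.31) had p under it. Without HFD M2 and HFD F2 it was 15 of 20 with a median of -0.60, where Acat2 (-0.42), Ebp (-0.24) and Insig1 (-0.30) had p over 0.05 and Fdps (-0.73) had p under it. In HFD vs. CD, Cyp51 (-0.64) had p over 0.05 without HFD M2 and HFD F2, and without the 4 libraries 13 enzymes in HFD vs. CD and 14 in HFDmetf vs. CDmetf were lower at this level.

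With metformin, the differences of the synthesis enzymes were mostly small. At an unadjusted p under 0.05, 0 of 20 differed in HFDmetf vs. HFD, in CDmetf vs. CD or in metformin averaged over diet, where the background was 6.61%, 5.14% and 5.04% of all genes. Their median logFC was 0.08, 0.09 and 0.11, and -0.16, -0.23 and -0.16 with the distal and proximal marker scores as covariates. Without the scores, and in the same order, the logFC was positive in 11, 17 and 13 of the 20 enzymes. Of all genes tested, 46.1%, 50.4% and 47.6% had a negative one. Averaged over diet, Hmgcs1 had a logFC of 0.19 (SE = 0.19) and Sqle of 0.18 (SE = 0.23). On the high-fat diet these were 0.20 (SE = 0.26) and 0.19 (SE = 0.33), and on the control diet 0.18 (SE = 0.26) and 0.18 (SE = 0.33). These standard errors leave room for larger differences. edgeR called 0 genes at FDR under 0.05 in each metformin comparison (background 0.0%), in which 931, 724 and 710 genes had an unadjusted p under 0.05. With metformin averaged over diet, 3 of 4 macrophage markers were higher at an unadjusted p under 0.05 (median logFC 0.42), and the proximal markers had a median of -0.71 with 0 of 5 at this level. In the other marker lists 0 were at this level. Their part in the members' values was not tested beyond the fits with the scores. HFDmetf vs. HFD and HFD vs. CD share the HFD animals, so that their values are not independent.

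Among the members, Insig2 had the lowest p for the combination of diet and metformin. It had 17, 26.4 and 42 CPM in CD, 27.1, 35.8 and 62.7 in CDmetf, 24.9, 31 and 37.2 in HFD and 15.9, 23 and 31.4 in HFDmetf. CDmetf was the highest group and HFDmetf the lowest, with some overlap. The interaction of diet and metformin was -0.88 (SE = 0.27, FDR = 0.709), rank 68 of 14076 genes. Insig2 was the only one of the 32 members with an unadjusted p under 0.05 there (background 6.03% of all genes, 2.99% lower). A count of 1 in 32 is no more than this background. In CDmetf vs. CD, Insig2 was higher at an unadjusted p under 0.05 (background 2.74%, logFC = 0.51, SE = 0.19, FDR = 0.940) in 5 of 6 comparisons by labelled sex and number. Leaving out each animal in turn kept the interaction between -1.02 and -0.77, each with an unadjusted p under 0.05, while the value in CDmetf vs. CD came to 0.36 with an unadjusted p over 0.05 without CDmetf F2, which at 62.7 CPM was the highest library. Insig1 had 48.4, 98.2 and 165 CPM in CDmetf and 43.4, 51.7 and 91.2 CPM in HFDmetf, again the groups with the highest and the lowest mean, and its interaction had an unadjusted p over 0.05.

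With metformin averaged over diet, 1 of 32 members had an unadjusted p under 0.05, no more than the background of 5.04%. This member was Soat2, which was lower (background 2.07% lower, logFC = -0.71, SE = 0.28, FDR = 0.793), in 8 of the 10 comparisons by labelled sex and number. It had 35.9, 85.3 and 199 CPM in CD, 20.7, 38.4 and 130 in CDmetf, 68.5, 142 and 157 in HFD and 20.7, 82 and 138 in HFDmetf. All groups overlapped. With the distal and proximal marker scores as covariates the value was -0.21, with an unadjusted p over 0.05. The p was also over 0.05 without HFD F2 alone, without HFD M2 and HFD F2, and without the 4 libraries. All 8 transport and LXR genes had a negative logFC in HFDmetf vs. HFD (median -0.39), each with an unadjusted p over 0.05, where 46.1% of all genes tested were negative. Their median was -0.09 with the distal and proximal scores and -0.06 with the epithelial score as covariates.

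**Figure D3:**
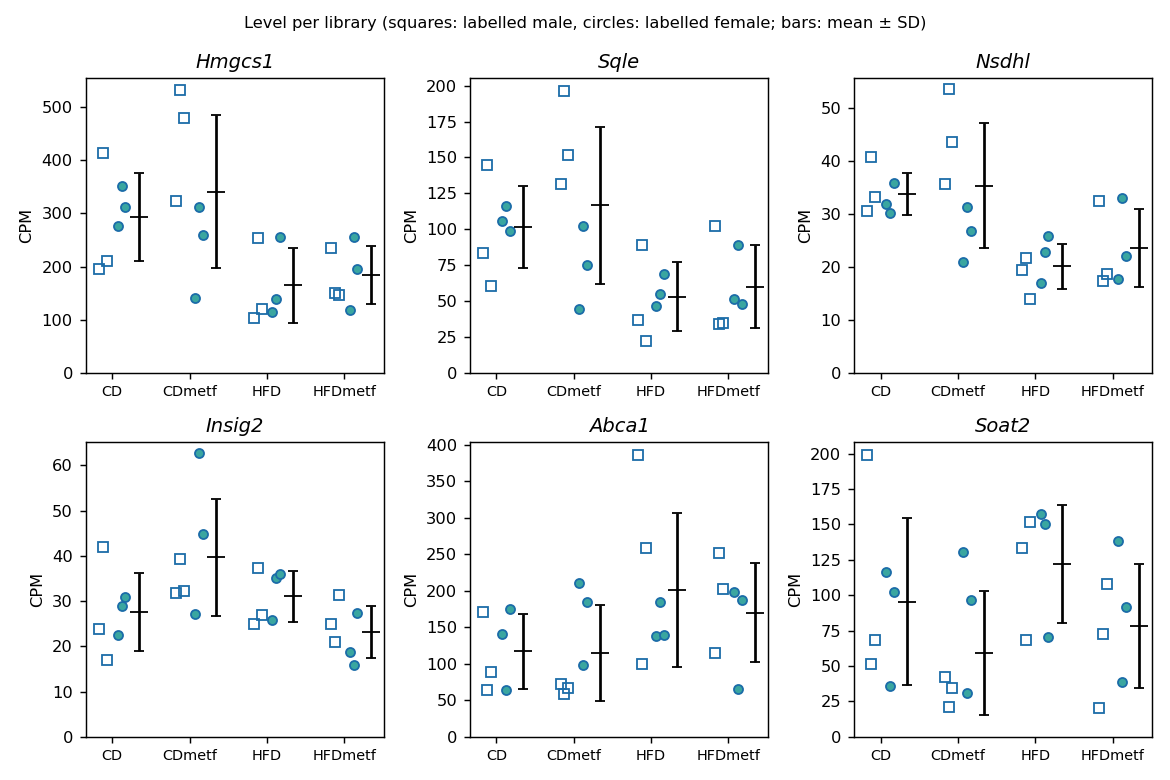
CPM of 6 members in each of the 24 libraries by group, with squares for libraries labelled male, filled circles for those labelled female, and bars for the mean ± SD of 6 libraries. Hmgcs1, Sqle and Nsdhl are lower in HFD than in CD, Insig2 is highest in CDmetf, and Abca1 in HFD includes a library at 387 CPM.

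Between the sexes as labelled, 0 of 20 synthesis enzymes had an unadjusted p under 0.05 (background 7.27%), and 0 members were called at FDR under 0.05 (background 0.0071%). Srebf2 (logFC = -0.25, SE = 0.11, FDR = 0.662) and Scap (-0.20, SE = 0.08, FDR = 0.63) were lower in females, 2 of 4 control genes against a background of 4.62% lower. Without HFD M2 and HFD F2, whose sex-linked reads went against their labels, Srebf2 had an unadjusted p over 0.05, and without the 4 libraries both genes did.

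Within groups the enzymes varied together. After the group mean of log2 CPM was subtracted, Sqle and Hmgcs1 had r = 0.858 and rho = 0.844 over 24 libraries (permutation p = 1e-05 for both, the smallest that 100000 permutations can give, and 4.1e-05 and 8.2e-05 adjusted over the 41 relations computed). Without the 2 libraries farthest in Sqle, CDmetf F1 and HFD M3, r was 0.842. Within the 10 libraries of over 9000000 reads r was 0.775, and within the other 14 it was 0.909. The closest likeness to Sqle was that of Fdft1 (r = 0.952, rho = 0.960), and then Cyp51 (r = 0.933) and Msmo1 (r = 0.887). Over the other 19 enzymes the median r was 0.79, from -0.08 (Sc5d) to 0.95, and over the SREBP2 control genes 0.41, from 0.13 (Scap) to 0.72 (Srebf2). These values share library and depth.

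Transport and LXR genes ran the other way, with a median r with Sqle of -0.52 and 6 of 8 values negative. Abca1 had r = -0.782 and rho = -0.798 (permutation p = 8e-05 and 5e-05, adjusted 0.000252 and 0.000186), and r was -0.760 without the farthest 2 libraries, -0.436 in the deeper 10 and -0.879 in the other 14. Soat2 had r = -0.735 and rho = -0.747 (permutation p = 0.0001 and 0.00018, adjusted 0.000273 and 0.000568). The marker scores moved as well. The proximal score had r = -0.840 and rho = -0.847 with Sqle (permutation p = 1e-05 and 3e-05, adjusted 4.1e-05 and 0.000154), and the distal ileum score r = 0.720 and rho = 0.674 (permutation p = 0.00032 and 0.00079, adjusted 0.000729 and 0.0018). Without the farthest 2 libraries they were -0.812 and 0.540. The epithelial score had r = -0.252 and a permutation p of 0.269. Of the other lists, the smooth muscle score had r = 0.607 and rho = 0.600 (permutation p = 0.00388 and 0.00535, adjusted 0.00783 and 0.00997) and the enteric neuron score r = 0.581 and rho = 0.508 (permutation p = 0.00648 and 0.0195, adjusted 0.0121 and 0.0320), and without the farthest 2 libraries r was 0.567 and 0.527. The crypt, B-cell, T-cell, macrophage and adipocyte scores had r between -0.02 and 0.16, each with a permutation p over 0.05. Within the deeper 10 and the other 14 libraries r was -0.562 and -0.950 for the proximal score, 0.673 and 0.732 for the distal ileum score, 0.393 and 0.730 for smooth muscle and 0.459 and 0.675 for enteric neurons. Libraries rich in proximal markers were thus low in Sqle, and the part of this in the diet differences was not tested beyond the fits with the scores as covariates.

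**Figure D4:**
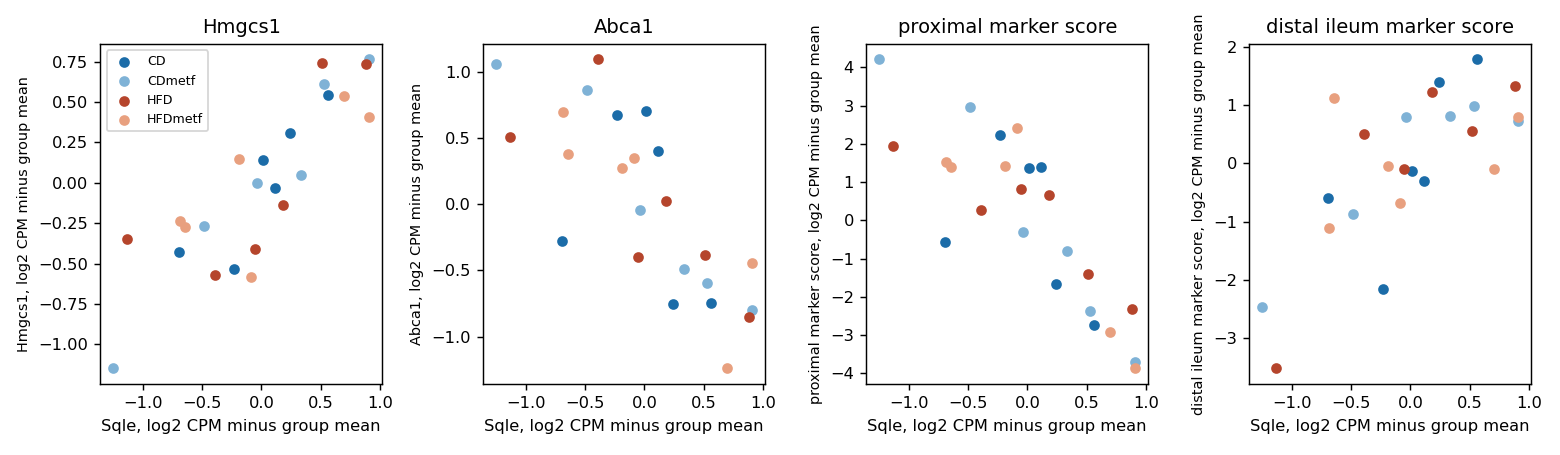
Values of Hmgcs1, Abca1 and the proximal and distal ileum marker scores (vertical) against Sqle (horizontal) over 24 libraries, as log2 CPM minus the group mean, colored by group. Hmgcs1 (r = 0.858) and the distal score (r = 0.720) rise with Sqle, and Abca1 (r = -0.782) and the proximal score (r = -0.840) run against it.

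Of 29 further genes of sterol and SREBP biology, 28 were tested. Averaged over metformin, 6 were lower (background 2.69%) and 3 higher (background 3.28%) at an unadjusted p under 0.05, and the median logFC was 0.01. The values ran from -1.47 to 1.81, and the genes named for this comparison were not at either end. The lower ones included Aacs, which activates acetoacetate for lipid synthesis (logFC = -0.55, SE = 0.17), and the sterol-binding gene Osbpl2 (-0.18, SE = 0.07). The fatty acid synthesis genes Fasn (-1.07, SE = 0.36), Acaca (-0.61, SE = 0.22) and Acly (-0.42, SE = 0.19) were also among them. The higher ones included Srebf1 (0.57, SE = 0.19), which encodes SREBP1, and Lpcat3 (0.38, SE = 0.16), a phospholipid acyltransferase and LXR target. In HFD vs. CD, against a background of 2.04% lower and 2.59% higher, 5 were lower (Fasn at -1.41, Acaca at -0.68, Aacs at -0.67, Acss2 at -0.46 and Fads2 at -0.44) and 2 higher (Srebf1 at 0.91 and Lpcat3 at 0.75). None passed the adjusted threshold in edgeR's test.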

How the data were processed

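The members, the gene lists and the comparisons were chosen with earlier results of these data known. From these libraries, the study listed Acat2, Hmgcs1, Mvk, Pmvk, Mvd and Idi1 in an enriched pathway, so the direction of these genes is not independent evidence. That pathway was drawn from the study's genes at FDR under 0.05 in HFD vs. CD, a threshold that none of the members passed there in the edgeR fit used here. The authors deposited raw counts per gene. By their methods, reads from rRNA-depleted libraries were trimmed with Trimmomatic 0.39, then mapped to GRCm38 and counted with STAR 2.5.3a. The annotation release and counted strand are not given in the sources used here. Lines of the table that name no gene (35.5% to 75.7% of reads) were left out, and 0 columns belonged to other samples. IDs were matched to GENCODE M21 symbols (55450 of 55536).

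Differential expression was tested with edgeR 4.0.16 (R 4.3.3) after TMM scaling of the genes kept by filterByExpr. Its quasi-likelihood fit held the 24 libraries together, with terms for group, sex and replicate number (17 residual degrees of freedom). P-values were adjusted by the Benjamini-Hochberg method over 14076 genes (FDR, threshold 0.05). The replicate number stood in for the study's block. P-values measure the spread between single animals. Log2 CPM used a prior count of 1. Relations with Sqle were tested by permuting libraries within groups. The diet difference averaged over metformin is given for every member, and other comparisons for Hmgcs1, Sqle and members with an unadjusted p under 0.05. Alternatives were DESeq2 1.42.0, limma-voom (limma 3.58.1), RLE scaling, other count filters, no block, no sex term, the compared samples alone, marker scores as covariates, and leaving out animals. Promoters came from RefSeq, and in 30 of 35 windows the bases after the start were found near the start of a transcript.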

Additional observations from a re-analysis of the deposited data

Results flagged for a closer look

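Each member was looked at in each group of 6 libraries, 128 groups in all, for a library far from the other 5, and 4 groups held such a library (3.13%, where chance gives about 1 in 20 groups). Pmvk was at 28.6 CPM in CDmetf M2, against 4.57 to 13.5 CPM in the other CDmetf libraries. Ggps1 was at 43.3 CPM in HFD F3, against 27.1 to 32.3 CPM, and at 45.9 CPM in HFDmetf F3, against 22.9 to 31.4 CPM. Insig1 was at 47.7 CPM in CD M3, the library in which 10 genes took 85.4% of the counts, against 87.1 to 97.5 CPM. The cause of these values was not tested.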

How the results depend on the processing

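For the diet averaged over metformin, the enzymes lower at an unadjusted p under 0.05 numbered 12 to 17 of 20 over all settings tried, with a median logFC between -0.73 and -0.39. Of 4205 alternative values of 119 results, 4036 were labelled the same as the main fit and 80 as changed in sign. A count was labelled the same if of similar size, and a group median was judged by its spread between libraries. A median labelled the same could therefore change sign. Depth limits the low genes most: Fdps had fewer than 3 reads in 4 libraries. The cause of the changes below was not tested.

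Genes called at FDR under 0.05 by DESeq2 numbered 13 in HFD vs. CD, 4 in CDmetf vs. CD, 4 in the interaction, 48 for the diet averaged over metformin (5 of them members) and 22 for females against males. For the averaged diet, 2 were called by limma-voom, with no filter and with the epithelial score, and 1 with the distal and proximal scores and without the 4 libraries set apart, a setting chosen after seeing the data. Between the sexes 15 were called with no filter, 5 with the epithelial score, 0 with the distal and proximal scores, and 8 without HFD M2 and HFD F2 or without the 4 libraries.

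Members at an unadjusted p under 0.05 numbered, in HFDmetf vs. HFD, 4 by limma-voom, 2 with no filter or with the distal and proximal scores, and 1 in the compared samples alone or without the 4 libraries. In CDmetf vs. CD they numbered 2 with no filter, in the compared samples alone and with the epithelial score, and 5 with the distal and proximal scores. In the interaction they numbered 2 with the distal and proximal scores. For metformin averaged over diet they numbered 2 by DESeq2, limma-voom, no filter and the distal and proximal scores, and 0 without HFD M2 and HFD F2 or without the 4 libraries. Between the sexes they numbered 0 with no filter, 4 with the distal and proximal scores and 1 without HFD M2 and HFD F2.

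Signs of single genes changed mostly in values near 0. Some group medians changed sign too. Among them were those of the synthesis enzymes in the metformin comparisons, with the distal and proximal scores. Another was that of the transport and LXR genes in HFDmetf vs. CDmetf, at 0.23 with the epithelial score. With the distal and proximal scores, the logFC of Hmgcs1 and Sqle was -0.14 and -0.24 in HFDmetf vs. HFD, -0.18 and -0.30 in CDmetf vs. CD, -0.16 and -0.27 for metformin averaged over diet, and 0.16 and 0.27 for females against males. With the epithelial score Sqle in HFDmetf vs. HFD was -0.0035. The interaction of Hmgcs1 and of Sqle was -0.0031 and -0.017 by DESeq2, -0.0044 and -0.024 with RLE scaling, -0.073 and -0.098 with no filter, -0.0034 and -0.022 with no sex term and -0.12 and -0.17 with the epithelial score, and that of Hmgcs1 -0.015 without HFD M2 and HFD F2. For the averaged diet, Ggps1 was at 0.021, Soat2 at -0.018 and Abcg8 at -0.13 with the distal and proximal scores, Lbr at -0.0060, Npc1l1 at 0.092 and Abcg5 at 0.15 with the epithelial score, and Scap at 0.031 without the 4 libraries.

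The replicate numbers were not shown to pair the animals: libraries of the same number had a mean correlation of 0.130 (from -0.458 to 0.757) of their deviations from the group means, and libraries of different numbers -0.0642. With no replicate block, 47 of 48 summary results were labelled the same, and the median of the enzymes for the averaged diet was -0.55. Members at an unadjusted p under 0.05 between the sexes numbered 0 without the block, and the interaction of Hmgcs1 and Sqle was -0.041 and -0.0022.

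Leaving out single animals gave these lowest and highest values. Genes called numbered 0 to 1 in HFD vs. CD, 0 to 6 for the averaged diet (6 without CDmetf F1) and 1 to 8 between the sexes (8 without HFD M2). Members at an unadjusted p under 0.05 numbered 8 (without CDmetf M2) to 21 (without CDmetf F1) in HFDmetf vs. CDmetf, 0 to 3 in HFDmetf vs. HFD, 0 to 2 in CDmetf vs. CD, 1 to 2 in the interaction, 0 to 3 for metformin averaged over diet and 0 to 2 between the sexes. Sqle ranged from -0.085 to 0.42 in HFDmetf vs. HFD, from -0.29 to 0.25 in the interaction and from -0.22 to 0.022 between the sexes, and Hmgcs1 from -0.19 to 0.26 in the interaction. For the averaged diet, Ggps1 ranged from -0.10 to 0.0025, Lbr from -0.029 to 0.11, Npc1l1 from -0.23 to 0.041, Abcg5 from -0.14 to 0.076, Abcg8 from -0.0019 to 0.22 and Mylip from -0.039 to 0.15.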
